A study of Homo sapiens with 18 samples.

Results

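The regions described here are stretches of chromatin that were open in every ATAC-seq library of the study and lay more than 5 kb from every gene start of its RNA table. ATAC-seq reads DNA that a transposase can reach. The peaks of the 4 ATAC libraries were merged wherever they shared 1 bp or more, which gave 59275 regions. Of these, 8794 held a peak in all 4 libraries, and 2215 of those had no gene start of the table within 5 kb (the members). They were thus chosen by the presence of ATAC peaks and by their position, and not by peak height, GFP-UBR7 peaks or RNA. The remaining 6579 had one and are called gene-start regions. A further 44140 distal regions held a peak in 1 to 3 libraries.

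All samples came from HEK293T, a human line grown from embryonic kidney. Cells labelled UBR7KO carry a CRISPR-Cas9 knockout of UBR7, a protein with a UBR box and a PHD finger that the study presents as a histone H3 chaperone, and parental cells do not. ATAC-seq was made from 2 UBR7KO and 2 parental libraries. RNA-seq was made from 3 UBR7KO libraries, of which 2 are labelled line KO1 (KO1-1 and KO1-2) and 1 line KO2 (KO2-1), and from 3 parental libraries. Chromatin immunoprecipitation with a GFP antibody was made once, in cells with GFP fused to endogenous UBR7 and no knockout, and its peaks are called GFP-UBR7 peaks. Whether a knockout line is 1 clone, and whether replicates are separate cultures, is not stated, so p-values speak for these libraries only. They rest on the spread between these libraries and on a variance shared over all genes tested. A code in the labels of the UBR7KO ATAC libraries is that of the library labelled KO2-1, so their origin in line KO2 was inferred and is not stated.

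Open chromatin away from gene starts commonly marks enhancers, which are bound by transcription factors and can raise transcription of a gene at a distance, and insulator sites bound by CTCF, which shape chromosome loops together with cohesin. Such sites differ more between cell types than promoters do. Repeated DNA beside centromeres is another place where reads pile up in many libraries. Peak lists alone do not tell these kinds of site apart.

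The name distal held for some of the members only. A file of 13176 gene starts deposited with the ATAC data (refGene starts) placed a start inside 785 members (35.4%) and within 5 kb of 72 more, so that 1358 members (61.3%) had no start within 5 kb in either source. The RNA table gives 1 start per gene, its outermost boundary, and covers 14177 genes. Of the 785 members with a refGene start inside, 589 held a start of a gene that the table has at another position, 180 held the start of a gene that is not in the table, and in 16 the accession was not matched to a gene. The gene whose start lay inside was also the nearest gene in 426 of the 785. Among them were starts of APC, a negative regulator of Wnt signalling, which the rule placed 30.0 kb from its table start, of the ribosomal protein gene RPL10 at 7.58 kb, and of NR3C1, the glucocorticoid receptor, at 29.9 kb. Results below are therefore given for all members and for those with and without a start.

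The RefSeq promoters of 4 genes, chosen after their values were seen, are given as examples for members of the second kind. Each gene has its refGene start inside a member, is not in the RNA table, and its member carried a GFP-UBR7 peak. Of the 180 members of this kind, 40 (22.2%) carried one. KCNH1 is a voltage-gated potassium channel gene, HTR7 encodes a serotonin receptor, CELF6 encodes an RNA-binding protein, and TOMM20L resembles a subunit of the mitochondrial import receptor. The sequences are RefSeq's for GRCh38.p14, 250 bases before to 50 bases after the gene's start, on the strand of the gene. They were matched by symbol and not by position, because the peaks are in GRCh37-type coordinates. Whether these windows lie inside the members was thus not checked. Capitals mark GC boxes, GGGCGG or its complement CCGCCC.
KCNH1: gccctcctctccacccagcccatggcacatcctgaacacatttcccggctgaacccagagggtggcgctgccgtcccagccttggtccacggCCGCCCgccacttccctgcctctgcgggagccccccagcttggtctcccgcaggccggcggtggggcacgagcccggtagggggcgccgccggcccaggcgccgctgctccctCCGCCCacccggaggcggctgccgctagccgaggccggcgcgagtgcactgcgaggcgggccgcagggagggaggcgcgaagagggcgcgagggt
HTR7: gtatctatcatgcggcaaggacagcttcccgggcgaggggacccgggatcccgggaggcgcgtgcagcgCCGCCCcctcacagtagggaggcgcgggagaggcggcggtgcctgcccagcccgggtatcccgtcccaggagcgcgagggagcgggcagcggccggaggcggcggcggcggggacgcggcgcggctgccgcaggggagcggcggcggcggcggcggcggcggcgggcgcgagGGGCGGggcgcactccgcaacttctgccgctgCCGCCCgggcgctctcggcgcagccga
CELF6: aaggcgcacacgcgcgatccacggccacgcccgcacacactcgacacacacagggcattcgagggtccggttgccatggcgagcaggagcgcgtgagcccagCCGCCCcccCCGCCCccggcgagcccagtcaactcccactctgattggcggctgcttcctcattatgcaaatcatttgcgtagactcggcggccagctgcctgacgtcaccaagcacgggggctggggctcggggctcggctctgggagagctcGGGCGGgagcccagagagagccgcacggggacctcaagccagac
TOMM20L: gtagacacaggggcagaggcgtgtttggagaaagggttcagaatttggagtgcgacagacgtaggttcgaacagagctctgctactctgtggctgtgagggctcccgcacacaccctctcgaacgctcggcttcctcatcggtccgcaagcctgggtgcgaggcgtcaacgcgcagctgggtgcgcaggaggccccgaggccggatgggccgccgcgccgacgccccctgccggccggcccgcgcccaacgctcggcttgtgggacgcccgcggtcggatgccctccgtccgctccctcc
KCNH1, HTR7 and CELF6 hold 2, 3 and 3 GC boxes in these windows, and TOMM20L holds 0. Their GC content is 76.0%, 80.3%, 68.7% and 69.0%, and they hold 32, 50, 29 and 34 CpG dinucleotides.

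The KCNH1 member (chr1:211307067-211307860, 794 bp) was covered over 406 bp and 594 bp by the peaks of UBR7KO 1 and 2, and over 301 bp and 794 bp by those of parental 1 and 2. Its nearest gene of the RNA table was RCOR3, 123.9 kb away. The HTR7 member (chr10:92617202-92618226, 1025 bp) was covered over 323 bp and 872 bp in UBR7KO 1 and 2, and over 945 bp and 729 bp in parental 1 and 2, with RPP30 13.2 kb away. In both cases the promoter of 1 gene was assigned by distance to another gene, and such assignments enter every value on nearest genes given below.

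Over all genes whose refGene start lay inside a member and which the RNA table has elsewhere, 515 of 587 (87.7%) had a RefSeq promoter. As these genes have another start, the promoter read may belong to that start and not to the one inside the member. The shares of these promoters thus describe the genes and not the members. The ratio of observed to expected CpG was over 0.6 in 75.3% of these promoters, against 92.4% of those of genes that start in another region open in all 4 libraries and 48.9% of all 27305 RefSeq promoters. A GC box on either strand stood in 62.9%, against 76.4% and 44.6%. TATAAA on either strand stood in 6.80%, against 4.46% and 12.0%, and CCAAT in 39.8%, against 41.7% and 35.7%. For the genes that are not in the table, only 68.4% had a RefSeq promoter, so the same check is void for them. A match is a description of these letters and not a bound site.

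Members were wide for distal regions. Their median width was 801 bp (interquartile range 588.5 to 1045 bp, from 193 to 3096 bp), against 960 bp in gene-start regions and 220 bp in distal regions open in 1 to 3 libraries. Merging peaks of more libraries widens a region, so the distal regions open in 3 libraries are the nearest match, with a median of 512 bp. Members with a refGene start inside had a median width of 915 bp, and those with no start within 5 kb 734 bp. Widths were part of the union that chose the members, so they are given without a test.

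**Figure D1:**
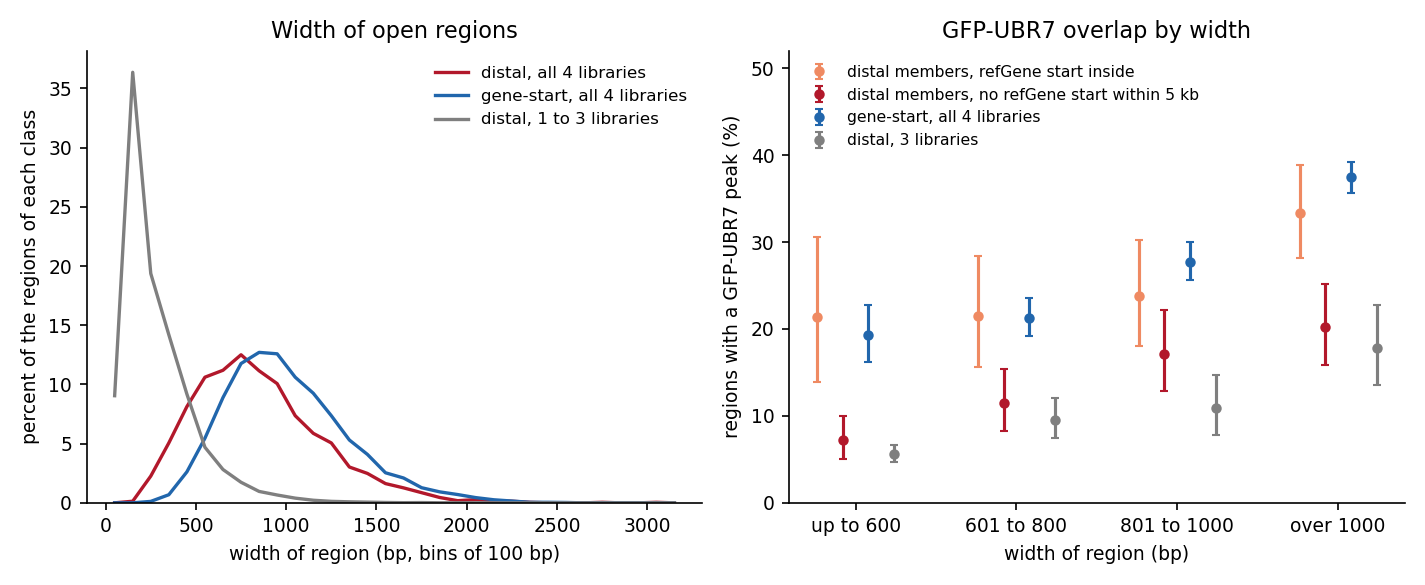
Left, the percentage of regions of each class in bins of 100 bp of width. Right, the percentage of regions with a GFP-UBR7 peak by width class, with 95% exact binomial intervals, in members with a refGene start inside, members with none within 5 kb, gene-start regions, and distal regions open in 3 libraries. In each width class the members with no start within 5 kb lie below the gene-start regions, and those with a start inside lie near them.

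The libraries differed in how many peaks they held, and parental 1, with the fewest, bore most on the membership. UBR7KO 1 and 2 had 15310 and 45920 peaks, and parental 1 and 2 had 10507 and 38529. Of the 3312 distal regions open in 3 libraries, the missing library was parental 1 in 2603 (78.6%), UBR7KO 1 in 676, parental 2 in 20 and UBR7KO 2 in 13. Without parental 1, 4817 distal regions held a peak in the other 3 libraries, and 13.0% of these carried a GFP-UBR7 peak. The median length of a member covered by peaks was 466 bp and 635 bp in UBR7KO 1 and 2, and 360 bp and 601 bp in parental 1 and 2. The first replicate had the shorter cover in both genotypes. Both sets of regions that the authors intersected between replicates held nearly all members, 2210 (99.8%) in the UBR7KO set and 2206 (99.6%) in the parental set. By the rule each member has a peak in both replicates of each genotype, so this overlap was nearly fixed in advance.

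Members had peaks of middling strength within the lists of their own libraries. The median −log10 q of the members was 1.204 and 2.08 in UBR7KO 1 and 2, and 1.07 and 1.38 in parental 1 and 2, as the authors' peak caller scored them. In the same lists the median over all peaks was 1.22 and 1.87 in UBR7KO 1 and 2, and 1.07 and 1.33 in parental 1 and 2. The members' median thus stood between the 48.7 and 54.1 percentile of its own list in each library. The 8794 regions open in all 4 libraries make up most of the lists of parental 1 (10507 peaks) and UBR7KO 1 (15310 peaks). In these 2 lists a place near the middle was thus largely set in advance. In the longer lists of UBR7KO 2 and parental 2 the members' median stood at the 54.1 and 51.4 percentile. A −log10 q of 1.3, which is a q of 0.05, was reached in all 4 libraries by 179 members, and 101 members fell under it in all 4. Members under it in 1 library were 54.8% and 23.6% in UBR7KO 1 and 2, and 63.2% and 46.3% in parental 1 and 2. No distal region was left in all 4 libraries when only peaks with a −log10 q of at least 5 were kept.

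Members lay at a median of 46.2 kb from the nearest gene start of the table (interquartile range 17.5 to 124 kb), against 95.9 kb for distal regions open in 1 to 3 libraries. The rule set the lower end at 5 kb. The 3 members just inside it lay 5.00 kb from RRAS2, a Ras-related GTPase gene, 5.01 kb from SEC16A, a gene of endoplasmic reticulum exit sites, and 5.04 kb from the tubulin gene TUBB2A. Just outside it, regions lay 4.97 kb from FBXW5 and 4.93 kb from TP53INP2. Members of 5 to 10 kb numbered 268, and 139 lay over 500 kb away. A refGene start inside was found in 49.6% of the members at 5 to 10 kb, and in 15.1% of those at over 500 kb. The middle of 47.7% of the members lay within a gene of the table, against 74.97% of gene-start regions and 35.4% of distal regions open in 1 to 3 libraries. Among members with no refGene start within 5 kb this was 29.7%.

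**Figure D2:**
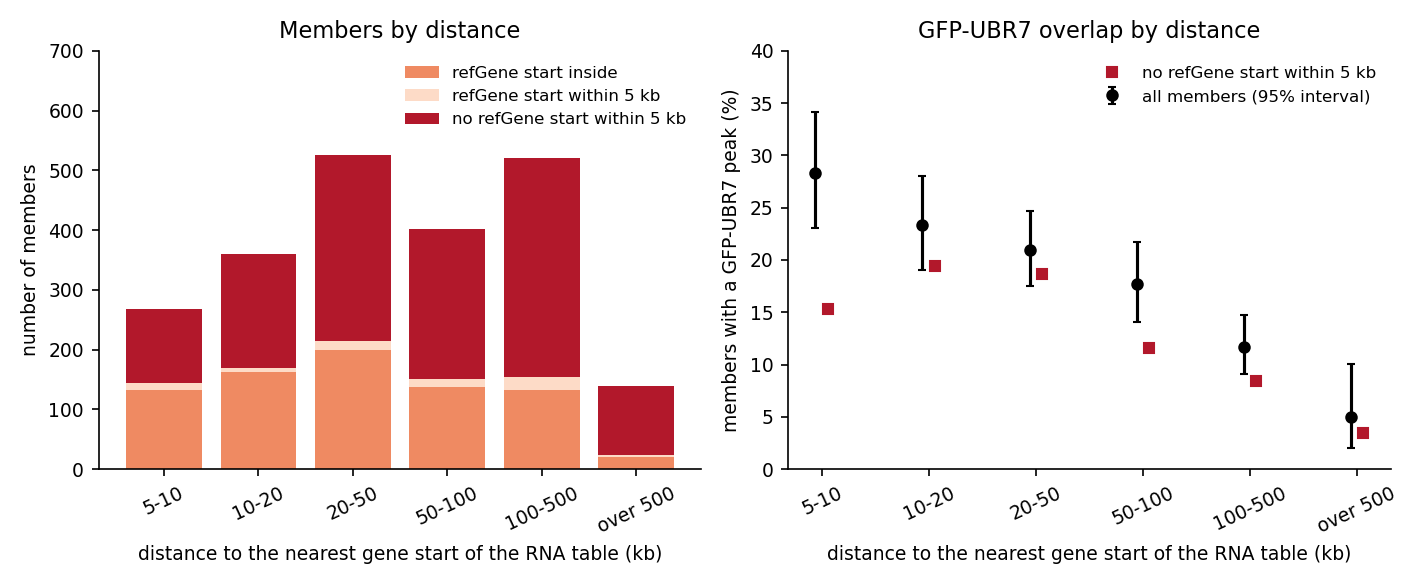
Left, the number of members by distance to the nearest gene start of the RNA table, split by refGene starts. Right, the percentage of members with a GFP-UBR7 peak by distance, with 95% exact binomial intervals for all members (circles), and for members with no refGene start within 5 kb (squares). The share of all members is 28.4% at 5 to 10 kb and 5.04% at over 500 kb.

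The share of open regions that were distal varied between chromosomes. Over all chromosomes 25.2% of the regions open in all 4 libraries were members. Chromosome 20 had the lowest share, 14.2% (26 of 183 regions). Chromosomes 4 and 15 had 30.4% (138 of 454) and 30.2% (74 of 245). On chromosome Y all 6 regions open in all 4 libraries were members, and whether their reads came from that chromosome was not tested.

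Few members stood close together. Joining members within 10 kb of each other left 2068 (93.4%) alone and put 147 (6.64%) into 56 groups, of which 44 were pairs. Of the gene-start regions, 5.30% lay within 10 kb of another. The median distance from a member to the next was 267.9 kb, against 83.9 kb between gene-start regions, which are more numerous. Members with a refGene start inside were within 10 kb of another of their kind in 0.765% of cases, and members with no start within 5 kb in 8.39%.

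The 5 groups of 4 or more members held 38 members, and each lay over 200 kb from the nearest gene start of either source. The group with most members, 14 over 49.7 kb, was at chr16:46385911-46435593, 219.9 kb from SHCBP1, a gene expressed in dividing cells. Groups of 8 at chr10:42384449-42408454 and of 7 at chr2:92281193-92323700 had LINC00839 and AC027612.6 as their nearest genes, 562.5 kb and 433.2 kb away. Groups of 5 at chr8:43821745-43838846 and of 4 at chrX:61685538-61696682 lay 826.2 kb from HGSNAT and 874.5 kb from SPIN4. As background, these stretches adjoin centromeres, where satellite repeats are common and reads can be hard to place. None of these 38 members lay in a gene of the table, and 1 (2.63%) carried a GFP-UBR7 peak. Repeat content was not measured, because no genome sequence of this build was at hand. Among the 7 groups of 3, one at chr6:26305270-26323624 lay 19.5 kb from the histone gene HIST1H4H.

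**Figure D3:**
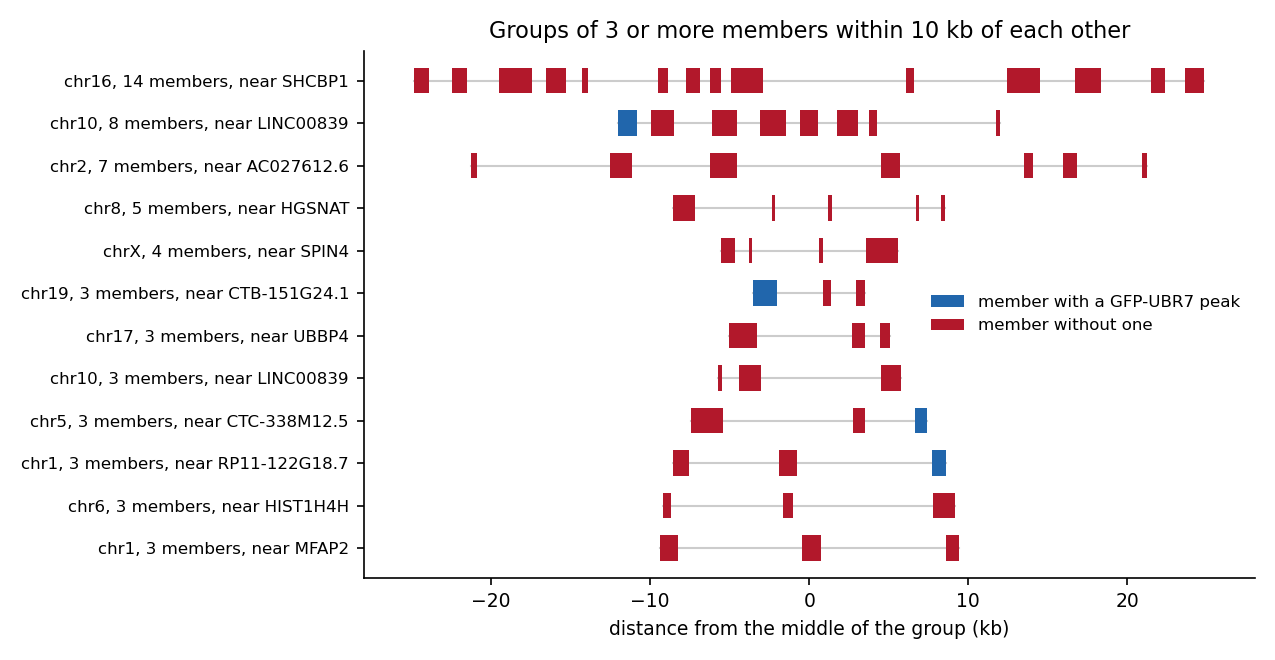
Members (boxes, to scale) in the 12 groups of 3 or more, by distance in kb from the middle of each group; blue boxes carry a GFP-UBR7 peak. The chr16 group holds 14 members over 49.7 kb, and none carries a GFP-UBR7 peak.

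The widest members were of several kinds. The widest of all, chr6:58776241-58779336 (3096 bp), lay 488.5 kb from LINC00680. It was covered over 2854 bp and 3056 bp in UBR7KO 1 and 2, and over 2822 bp and 3059 bp in parental 1 and 2, nearly its whole length in each library. The next, 2732 bp at chr10:38815778-38818509, was covered over 2462 bp and 1041 bp in UBR7KO 1 and 2, and over 728 bp and 507 bp in parental 1 and 2. Others of the 10 widest held a refGene start: the NR3C1 member (2302 bp), a member in RNF150 (2162 bp) and one in FMN2, a formin gene (2107 bp). Repeat content was not measured for the widest members either.

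GFP-UBR7 peaks overlapped 409 of the 2215 members, 18.5% (95% exact binomial interval 16.9 to 20.1%, for counting error only). The share was 30.0% (28.9 to 31.1%) in gene-start regions and 7.97% (7.07 to 8.95%) in distal regions open in 3 libraries. It was 26.8% (23.7 to 30.0%) in members with a refGene start inside and 13.1% (11.4 to 15.0%) in members with no start within 5 kb. With 1 immunoprecipitation there is no replicate, so these differences were not tested. Of the 5895 GFP-UBR7 peaks, 468 (7.94%) fell in members, 2311 (39.2%) in gene-start regions and 1222 (20.7%) outside every region of the union.

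Width moved with GFP-UBR7 overlap. Of members up to 600 bp wide 10.6% carried a GFP-UBR7 peak, and of those over 1000 bp 27.2%. Among members with no refGene start within 5 kb these shares were 7.24% and 20.2%, against 19.3% and 37.4% in gene-start regions and 5.61% and 17.8% in distal regions open in 3 libraries. Members with a start inside had 21.4% and 33.3%. In the narrowest and widest class, members with no start within 5 kb stood below both gene-start regions and members with a start inside. Gene-start regions and members with a start inside had overlapping intervals in both classes, and only in the narrowest were the members higher. Members with no start within 5 kb stood above distal regions open in 3 libraries, but within overlapping intervals. These were 5.03 to 10.0% against 4.65 to 6.70% in the narrowest class, and 15.8 to 25.2% against 13.5 to 22.8% in the widest. The distal regions were not filtered by refGene starts, so these sets are unlike and their order was not tested.

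Distance moved with it as well. The share fell from bin to bin, with 28.4% at 5 to 10 kb, 23.3% at 10 to 20 kb, 21.0% at 20 to 50 kb, 17.7% at 50 to 100 kb, 11.7% at 100 to 500 kb and 5.04% at over 500 kb. Members with no refGene start within 5 kb had 15.3%, 19.5%, 18.6%, 11.6%, 8.45% and 3.48% in the same bins, so their share was highest between 10 and 20 kb. The median width hardly moved with distance, from 821 bp at 5 to 10 kb to 736 bp at over 500 kb. What part starts and distance each have in these shares was not tested.

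The deposited score of a GFP-UBR7 peak, used here as a rank only, put the widest member first among members and 10th among all 5895 peaks, with a score of 507.92. Repeat content of that member was not measured, and how well reads are placed there is unknown. The second, 446.2, was a member of 1011 bp at chr19:59030622-59031632 that holds the refGene start of ZBTB45, a zinc finger gene. Starts of ACSF3, a fatty acid metabolism gene, of CLK3, a kinase of splicing factors, of BRWD1, a bromodomain gene, and of MRPS5, a mitochondrial ribosome gene, lay in 4 more of the 10 members with the highest scores. A member 74.4 kb from ARID1A, a subunit gene of the SWI/SNF chromatin remodelling complex, had 272.47 and no start near it. Its peaks covered 1069 bp and 1313 bp in UBR7KO 1 and 2, and 1014 bp and 1375 bp in parental 1 and 2, of 1393 bp. The MICAL3 member (998 bp, score 206.61) lay within its gene 22.5 kb from the start and also had none. The median score of GFP-UBR7 peaks was 67.2 in members and 68.9 in gene-start regions.

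The 2215 members had 1858 nearest genes, 13.1% of the table. LINC00839 and SHCBP1, beside the groups on chromosomes 10 and 16, were each nearest to 14 members, AC027612.6 to 8, and OCIAD1, a mitochondrial protein gene on chromosome 4, to 7. Away from the groups of 4 or more, genes nearest to 3 or more members with no refGene start near included ZNF608 with 5, the insulin-like growth factor receptor gene IGF1R with 4, and BMPER, a regulator of BMP signalling, and the transcription factor genes SP8 and BHLHE40 with 3 each. The 4 IGF1R members lay 220.1 kb, 99.8 kb, 130.6 kb and 203.3 kb from its start, with the last 2 within the gene, and 1 of the 4 carried a GFP-UBR7 peak. The 3 SP8 members lay 40.9 kb, 8.56 kb and 10.7 kb from it, and SP8 itself was at 1.06, 0.47 and 1.51 CPM (reads per 1000000 reads of the library) in KO1-1, KO1-2 and KO2-1, against 0.88, 0.54 and 1.54 CPM in parental 1, 2 and 3.

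Nearest genes stood close to the level of all genes. Their median was 24.5, 22.9 and 20.5 CPM in KO1-1, KO1-2 and KO2-1, and 24.7, 21.5 and 21.2 CPM in parental 1, 2 and 3 (22.6 ± 2.02 and 22.5 ± 1.89 CPM, mean ± SD of the medians, n = 3 each). In bulk RNA, fewer cells of a kind and less RNA per cell cannot be told apart. Over all genes of the table it was 21.3 ± 2.14 CPM in UBR7KO and 20.8 ± 2.35 CPM in parental libraries. The genes nearest to gene-start regions had 32.1 ± 1.77 CPM in UBR7KO and 32.0 ± 2.34 CPM in parental libraries. The nearest genes of the 785 members with a refGene start inside had 29.3 ± 2.13 CPM in UBR7KO and 29.2 ± 1.72 CPM in parental libraries. Those of members with no start within 5 kb had 18.8 ± 2.24 CPM in UBR7KO and 18.6 ± 1.77 CPM in parental libraries. The medians of this last set were below those of all genes in each of the 6 libraries, and the UBR7KO and parental libraries overlapped in each of these sets.

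Part of this order went with gene-start regions. Nearest genes of members that also had an open gene-start region of their own numbered 792, with a median of 30.4 ± 2.27 CPM in UBR7KO and 29.9 ± 1.47 CPM in parental libraries. The other 1066 had 17.0 ± 2.30 CPM in UBR7KO and 16.4 ± 2.04 CPM in parental libraries. Per kb of the table's width column, the median of the nearest genes was 1.74 CPM in UBR7KO and 1.75 CPM in parental libraries, below the 1.94 CPM in UBR7KO and 1.93 CPM in parental libraries of all genes. The width column exceeds the span of the gene for 15.4% of genes, so it is no plain transcript length.

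**Figure D4:**
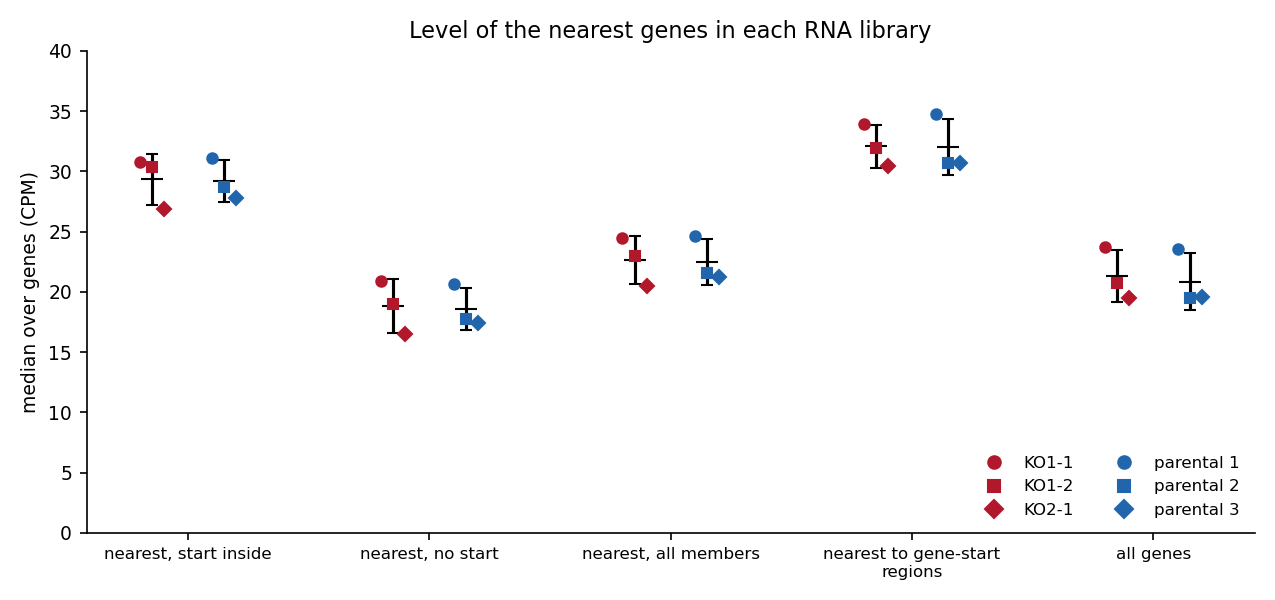
Median level in CPM over the genes of each set, in each RNA library; UBR7KO libraries in red left of parental libraries in blue, with horizontal marks and bars for the mean and SD of 3 libraries. Of the 5 sets drawn, nearest genes of members with no refGene start within 5 kb lie lowest, at 16.5 to 20.9 CPM in UBR7KO libraries and 17.4 to 20.6 CPM in parental libraries.

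The nearest genes with the highest levels were RN7SL2, NPM1, ACTG1, NCL and PTMA. RN7SL2, an RNA of the signal recognition particle, had 7254, 1303 and 1649 CPM in KO1-1, KO1-2 and KO2-1, against 6104, 1060 and 1444 CPM in parental 1, 2 and 3. KO1-1 and parental 1 stood far above the other libraries, whatever the genotype, and they share a date code in the labels. NCL, the nucleolar protein nucleolin, had 779.5, 1854 and 2092 CPM in the UBR7KO libraries and 816.9, 2093 and 2046 CPM in the parental ones, here with the same pair lowest. RN7SL2, NPM1, ACTG1 and PTMA have near-identical copies elsewhere, so their counts are uncertain. One of the 2 members nearest to NCL lay within the gene at 18.3 kb from its table start, holds its refGene start and carried a GFP-UBR7 peak of score 132.59.

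The knocked-out gene checked the labels of the RNA libraries. UBR7 was at 27.0 and 26.3 CPM in KO1-1 and KO1-2 and at 64.5 CPM in the library labelled KO2-1, against 55.0, 62.2 and 62.2 CPM in parental 1, 2 and 3. Its mRNA was thus lower in both KO1 libraries, and the library labelled KO2-1 lay above all parental ones. A knockout by CRISPR need not lower the mRNA. No member had UBR7 as its nearest gene. Markers of HEK293T were all 8 in the table and summed to 815 to 1184 CPM in UBR7KO and 777 to 1120 CPM in parental libraries. VIM made up most of this sum in each library, with 487 to 830 CPM. PAX2 and LHX1 had only 0.72 to 1.92 CPM and 1.07 to 3.81 CPM, so the sum does not settle the cell type. The 3 of 5 fibroblast genes in the table summed to 7.35 to 15.0 CPM in UBR7KO and 14.2 to 21.3 CPM in parental libraries, and the 2 of 5 blood genes to 2.69 to 3.37 CPM in UBR7KO and 1.90 to 3.16 CPM in parental libraries. Of 5 keratinocyte genes 0 were in the table. The part of these markers in the results was not tested.

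Between all 3 UBR7KO and all 3 parental libraries, no nearest gene passed the test. By limma on log2(CPM + 1) with Benjamini-Hochberg adjustment over 13697 genes, 0 of the 1802 nearest genes tested were higher and 0 lower, beside a background of 0% in either direction. At an unadjusted p under 0.05 it was 2 higher and 9 lower nearest genes, of 23 and 47 over all genes, and edgeR's quasi-likelihood test on the recovered reads also called 0. The 2 KO1 libraries against the 2 parental libraries of the same dates also gave 0 and 0 calls. The background was again 0% in either direction. At an unadjusted p under 0.05, 13 nearest genes were higher and 13 lower, of 116 and 102 over all genes. Both fits leave out the pairs of libraries, within which deviations from the group means correlated at 0.758, 0.736 and 0.633. The 0 calls thus do not show that nearest genes were unchanged.

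With the date pair as a block, a fit on 2 pairs of libraries, KO1 differed from parental cells at some nearest genes. With 2 pairs, the SE and p of a gene rest mostly on the variance shared over genes, and little on its own spread. By limma with adjusted p under 0.05, 46 of the 1802 nearest genes (2.55%) were higher and 27 (1.50%) lower in KO1, beside a background of 2.23% and 1.36% of all genes tested. The shares were thus near the background. Nearest genes of GFP-UBR7 members gave 12 higher and 6 lower calls among 384, and nearest genes of members with no refGene start within 5 kb 25 and 19 among 1088. The median log2 difference was 0.04 over the nearest genes and 0.03 over all genes.

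The 5 largest rises among nearest genes in KO1 were those of PHKA2-AS1, DDR2, NES, SYT16 and NT5E. NES, which encodes the intermediate filament nestin of neural progenitors, had 20.5 and 36.6 CPM in KO1-1 and KO1-2, against 7.84 and 16.6 CPM in parental 1 and 2. The 2 groups did not overlap, and the log2 difference was 1.19 ± 0.15 (SE) with an adjusted p of 4.44e-05 by limma with the block. The library labelled KO2-1 had 4.56 CPM, against 5.97 CPM in parental 3. Its member, 406 bp at chr1:156629790-156630195, lay 17.0 kb from its start and carried a GFP-UBR7 peak of score 174. DDR2, a collagen receptor kinase, had 18.0 and 13.3 CPM in KO1-1 and KO1-2, against 11.4 and 2.71 CPM in parental 1 and 2 (log2 difference 1.28 ± 0.27, adjusted p = 0.0306 by limma with the block). Its log2 differences in the 2 pairs were 0.62 and 1.95, a wider spread than this SE. Its member lay within the gene, 65.0 kb from the start. NT5E, the ecto-5'-nucleotidase CD73, had 4.58 and 4.36 CPM in KO1-1 and KO1-2, against 2.30 and 1.53 CPM in parental 1 and 2, with a member 322.9 kb away. SYT16, a synaptotagmin gene, had 2.92 and 3.41 CPM in KO1-1 and KO1-2, against 1.39 and 0.95 CPM in parental 1 and 2. Like PHKA2-AS1 below, SYT16 passed the filter of over 1 CPM in 3 libraries only through KO1-1, KO1-2 and parental 1. PHKA2-AS1, antisense to a phosphorylase kinase gene, had the largest rise (log2 difference 1.45 ± 0.25, adjusted p = 0.00243 by limma with the block), at 2.99 and 4.16 CPM in KO1-1 and KO1-2, against 1.17 and 0.27 CPM in parental 1 and 2. Its log2 differences in the 2 pairs were 0.88 and 2.02, also a wider spread than the SE. Whether reads were counted by strand is not given in the sources used here, so reads where the 2 genes overlap cannot be told apart. The partner, PHKA2, had 30.6 and 28.4 CPM in KO1-1 and KO1-2, against 35.0 and 30.0 CPM in parental 1 and 2, and thus did not share the rise.

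The largest falls were of both low and well expressed genes. RP11-453F18__B.1, whose member lies 10.6 kb from the refGene start of the long noncoding RNA gene FIRRE, had 1.93 and 1.53 CPM in KO1-1 and KO1-2, against 16.1 and 11.9 CPM in parental 1 and 2 (log2 difference -2.45 ± 0.20, adjusted p = 4.16e-08 by limma with the block). The library labelled KO2-1 had 32.7 CPM and parental 3 had 45.6 CPM, so this gene also differed between parental libraries. CDKN2B, a cyclin-dependent kinase inhibitor gene, had 2.31 and 2.86 CPM in KO1-1 and KO1-2, against 6.89 and 9.12 CPM in parental 1 and 2 (log2 difference -1.32 ± 0.20, adjusted p = 0.000373 by limma with the block). It had 2 members, at 115.1 kb and 437.3 kb, and the farther one holds the refGene start of DMRTA1 and a GFP-UBR7 peak. FOCAD, which encodes focadhesin and lies on the same chromosome, had 58.1 and 35.5 CPM in KO1-1 and KO1-2, against 113.8 and 67.1 CPM in parental 1 and 2 (log2 difference -0.93 ± 0.12, adjusted p = 4.44e-05 by limma with the block). Its member of 1114 bp lay within the gene, 25.4 kb from the start. AC116614.1 and RP11-150O12.3 completed the 5 largest falls. AC116614.1 had 0.27 and 0.04 CPM in KO1-1 and KO1-2, against 3.94 and 2.26 CPM in parental 1 and 2. RP11-150O12.3 had 0.27 and 0.63 CPM in KO1-1 and KO1-2, against 1.75 and 1.72 CPM in parental 1 and 2. Both genes passed the filter of over 1 CPM in 3 libraries only through parental 1, parental 2 and KO2-1. Every gene of the table also has at least 9 reads in parental 1. Their falls in KO1 thus depend in part on which genes were kept, and their KO1 values are near the floor.

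**Figure D5:**
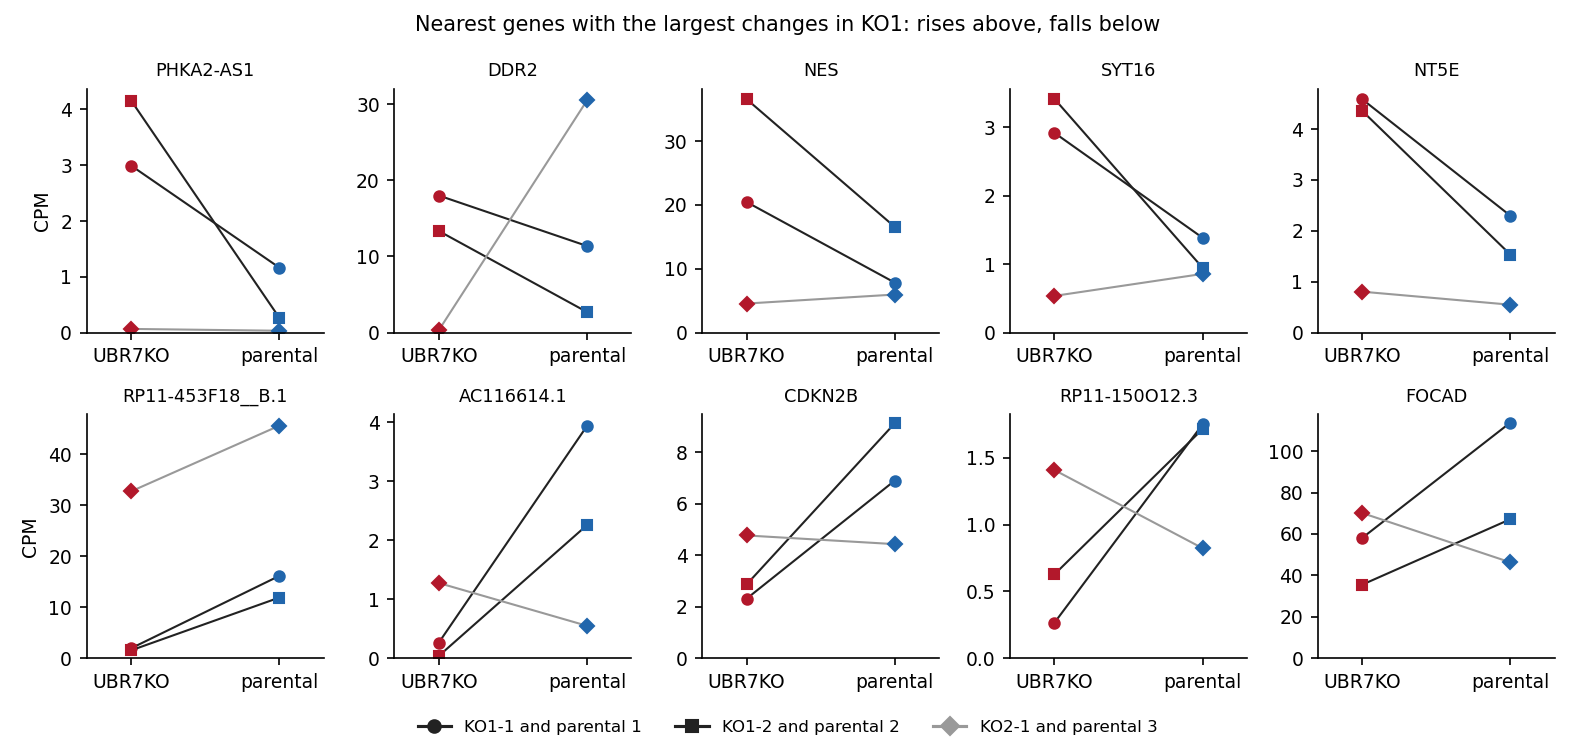
CPM of the 5 nearest genes with the largest rises (top) and the 5 with the largest falls (bottom) in KO1 with the date pair as a block; UBR7KO libraries stand left of the parental library of their pair, joined by a line, with the pair of KO2-1 and parental 3 in grey. Both KO1 lines run the same way in each panel, which chose these genes, and the grey line runs the other way in 7 of them, DDR2, NES, SYT16, AC116614.1, CDKN2B, RP11-150O12.3 and FOCAD.

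Gene lists chosen for this cell line were nearest to members in part. Among 11 genes of renal development 2 (18.2%) were nearest genes, beside 13.1% of all genes, and the transcription factor gene FOXC1 was nearest to 2 members. FOXC1 had 209.5, 230.3 and 280.5 CPM in KO1-1, KO1-2 and KO2-1, against 277.7, 301.3 and 172.9 CPM in parental 1, 2 and 3, and its members lay 13.6 kb and 56.4 kb away. Of 9 neuronal genes 3 (33.3%) were nearest genes (GAP43, MAP2 and DPYSL3), each at low levels. One of the 2 GAP43 members, in the gene 34.8 kb from the start, carried a GFP-UBR7 peak.

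Signalling and structural genes gave similar small counts, with shares of 8.70% to 25.0% of a list beside 13.1% of all genes. Of 25 genes of the BMP and TGF-beta pathway 6 were nearest genes of members, among them the receptor gene BMPR1A (44.6 kb), the transducer SMAD3 (176.7 kb) and the target ID4 (32.3 kb). ID4 had 60.2, 67.6 and 54.8 CPM in the UBR7KO libraries, against 79.6, 86.2 and 55.9 CPM in the parental ones, and did not pass the test. Of 23 Wnt genes 2 were nearest genes, APC and DKK1, and of 16 YAP-TEAD genes 4, ACTN1, AMOTL1, CAV1 and VCL. Of 9 architectural genes 2 were, the cohesin subunit RAD21 and YY1, with 2 members each, and both YY1 members, 44.9 kb and 23.4 kb away, carried GFP-UBR7 peaks.

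Lists of basic functions held few nearest genes. Of 89 ribosomal protein genes 5 (5.62%) were nearest genes of members, beside 13.1% of all genes. It was 0 of 8 histone chaperones (UBR7 included) and 0 of 10 MYC and cell cycle genes, lists too short to read 0 as a difference. The shares of the lists were not tested. Over the 9 lists, 0 nearest genes were called in either comparison, the blocked fit of KO1 included. Among all measured genes of the lists, that fit called 1 of 23 Wnt genes higher and 1 lower, and 1 of 25 genes of the BMP and TGF-beta pathway higher and 2 lower. It called 2 of 89 ribosomal protein genes, 2 of 10 MYC and cell cycle genes and, of the 8 histone chaperones, UBR7 itself lower. The background of this fit was 2.23% higher and 1.36% lower, and from 1 or 2 calls a list nothing is read about these lists.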

How the data were processed

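HEK293T cells were profiled by ATAC-seq (2 UBR7KO and 2 parental libraries), RNA-seq (3 and 3) and GFP ChIP-seq (1 library with 1 input). The 6 CUT&RUN samples were not analysed here. Groups came from the labels. The members and the gene lists were chosen with earlier results of these data known.

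The submitters' processing notes name MACS2, Bowtie2 2.3.1, TopHat2 2.1.0, HTSeq 0.6.1 and edgeR without a role for each. The authors called ATAC peaks in each library alone, and each broad peak has its −log10 q in the deposited lists. The peak score in the deposited ATAC lists follows that value, and the score of the deposited GFP-UBR7 peaks has no stated scale. The authors deposited RNA levels as CPM. The authors' log2 fold changes and p-values in the same table, from edgeR per the file headers, were not used. Positions are in GRCh37-type coordinates, counted from 1.

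Peaks were merged with Python 3.11.15, pandas 2.3.3 and numpy 2.4.6, and intervals were computed with scipy 1.17.1. All CPM values were whole multiples of 1 read within a tolerance of 1e-06, which gave whole reads for 100% of values and totals of 22153291 to 29811908 reads per library. The depth of ATAC and ChIP libraries is unknown. Every gene of the table has at least 9 reads in parental 1. Genes above 1 CPM in at least 3 libraries (13697) were tested with limma 3.58.1 (R 4.3.3; trend and robust) on log2(CPM + 1), which understates changes of low genes, with Benjamini-Hochberg adjustment, and with edgeR 4.0.16 as an alternative. The scripts were tested on simulated data. Date codes in the labels pair KO1-1 with parental 1 and KO1-2 with parental 2, and KO2-1 and parental 3 form an undated pair. Deviations from the group means correlated at 0.758, 0.736 and 0.633 within pairs and at -0.443 to -0.251 between them.

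Named regions were the 10 widest members, the 10 groups with most members, the 10 under the highest GFP-UBR7 scores and the 3 on each side of the 5 kb limit. Named genes were their nearest genes, the 10 nearest to most members, the 5 of highest CPM, the 5 largest rises and falls among called genes and up to 3 of each list. Genes nearest to 3 or more members, the genes of the printed promoters and others were chosen after their values were seen. For chromosome Y only the count of regions is given. Some named items are not reported here.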

Additional observations from a re-analysis of the deposited data

Results flagged for a closer look

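In 8 of the 11 genes compared (UBR7 and the 10 called nearest genes with the largest changes), both KO1 libraries moved one way against the parental library of their pair, and the library labelled KO2-1 moved the other way against parental 3. KO2 has 1 library, so the difference between the lines was not tested, and the direction of the KO1 libraries chose all of these genes but UBR7. On the log2(CPM + 1) scale the difference of KO2-1 from parental 3 was 0.05 for UBR7, where KO1-1 and KO1-2 stood at -0.999 and -1.21 from theirs. It was -4.56 for DDR2, against 0.62 and 1.95 in KO1-1 and KO1-2. The others were nearer to 0 in KO2-1, with -0.33 for NES, -0.27 for SYT16, 0.55 for AC116614.1, 0.09 for CDKN2B, 0.40 for RP11-150O12.3 and 0.59 for FOCAD.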

How the results depend on the processing

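The number of members was 2215. It was 1358 with refGene starts added, 802 where the peaks of each library had to cover at least 50% of the region, 179 with peaks of −log10 q of at least 1.3 and 0 with at least 5, where the GFP-UBR7 share and the level have no value. Leaving out 1 ATAC library gave 2226 to 4817 members, a GFP-UBR7 share of 13.0% to 18.1% and a median level of 22.1 to 23.5 CPM in UBR7KO libraries. The highest count, 4817, and the lowest share, 13.0%, came without parental 1. The share of 18.5% became 13.1% with refGene starts added, 21.8% at −log10 q of at least 1.3 and 10.4% with only the GFP-UBR7 peaks at or above the median score. The median level of 23.3 CPM became 19.9 CPM with refGene starts added and 27.4 CPM at −log10 q of at least 1.3. Limits of 2 kb and 10 kb, and leaving out the 38 members in groups of 4 or more, moved the count, share and level little (2370, 1947 and 2177 members). The thresholds of 1.3 and the groups left out were chosen after seeing the data, as was the edgeR test.

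No nearest gene was called in the 6 libraries under any alternative, the replicate block included (0 calls). In KO1 the date pair as a block gave 73 calls, of 491 over all genes, against 0 without it. The KO1 fits that leave a group with 1 library assume that it varies like the other group, so their calls are not given. The block changed no other call. The KO1 fits with and without the block differ in that term only, and what the date pairs stand for was not tested. The library totals limit what can be called near 1 CPM.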

Other observations

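CDKN2B and FOCAD, nearest genes of members that were lower in KO1, lie at 2 ends of a stretch of 1351 kb on chromosome 9 (9:20658308 to 22009362) that was looked at after their values were seen. Of the 6 genes of the RNA table within it, 5 were lower in KO1 by limma with the date pair as a block, beside a background of 1.36% lower over all genes tested. FOCAD and CDKN2B, 2 of these 5, bound the stretch, so their calls were fixed by how it was chosen. KLHL9, an adaptor of a ubiquitin ligase, had 59.0 and 40.1 CPM in KO1-1 and KO1-2, against 104.2 and 74.3 CPM in parental 1 and 2. MTAP, a methionine salvage enzyme, had 40.9 and 43.2 CPM in KO1-1 and KO1-2, against 83.4 and 99.5 CPM in parental 1 and 2. CDKN2A, which encodes the cell cycle inhibitors p16 and ARF, had 44.3 and 57.6 CPM in KO1-1 and KO1-2, against 78.4 and 143.3 CPM in parental 1 and 2. Their log2 differences, with FOCAD and CDKN2B, were -0.84 to -1.32, with adjusted p of 6.06e-06 to 0.000373 by limma. The library labelled KO2-1 had 85.2, 98.1 and 182.5 CPM of KLHL9, MTAP and CDKN2A, against 53.1, 75.3 and 112.0 CPM in parental 3, so all 3 stood higher there. RN7SL151P, the sixth gene, had 45.5 and 45.5 CPM in KO1-1 and KO1-2, against 48.1 and 30.9 CPM in parental 1 and 2. The ATAC peaks of the members beside FOCAD and CDKN2B were present in all 4 libraries by the rule, and copy number was not measured. The UBR7KO ATAC libraries were inferred to be of line KO2, so their peaks do not describe this stretch in KO1.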
